A study of Mus musculus with 6 samples.

Results

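Neurotransmitter receptors were examined here in thymic medullary epithelial cells from mice with and without Aire. The genes were those of the table whose symbol begins with Gabr (GABA receptor subunits), Gria, Grik or Grin (ionotropic glutamate receptors), Chrn (nicotinic acetylcholine receptor subunits), Chrm (muscarinic receptors), or Grm and a digit (metabotropic glutamate receptors). Each had to be measured by a probe set with exactly 1 gene symbol, and the probe set of highest mean was kept. This gave 60 genes of 19938 on the array, of which 5 encode the muscle acetylcholine receptor and are described apart from the other 55. Grina met the rule by its name, although the protein is not a subunit of the glutamate-gated channel.

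The groups were 3 samples labelled Aire KO (Aire-/- on a (B6xNOD)F1 background) and 3 labelled Aire WT on the same background, all from mice 4 to 6 weeks old and each hybridised to 1 array. The design text of the series gives 3 mice of each genotype taken individually, so p-values measure the spread between mice. Cells negative for CD45, intermediate for Ly51 and high for MHC class II were sorted from digested thymi, and their RNA was amplified in 2 rounds. The labels do not give the construction of the Aire allele. The values are log2 intensities and every difference is the KO mean minus the WT mean, so it is a ratio on the log2 scale. Fewer cells that express a gene and less RNA per cell cannot be told apart in such bulk samples.

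Fast synaptic receptors are channels assembled from several subunits around a pore. Nicotinic and GABA-A receptors are pentamers of related subunits that open to acetylcholine or GABA, whereas AMPA, kainate and NMDA receptors are tetramers that open to glutamate. Muscarinic and metabotropic glutamate receptors signal through G proteins. Medullary epithelial cells transcribe many genes typical of other organs, in part through the transcriptional regulator Aire, and the muscle acetylcholine receptor is of interest in the thymus because it is the main autoantibody target in human myasthenia gravis.

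Aire itself read 12.38, 12.41 and 12.42 in the samples labelled KO, against 12.00, 11.92 and 11.99 in WT samples (difference 0.44, SE 0.08, limma adjusted p = 0.0017). Since this probe set summarises probes along the transcript and the deleted part is not stated, its signal is no check of the labels. Array medians ran from 92.9 to 98.2 intensity units. Of 11 medullary markers, none lay under the intensity filter on all arrays. Their mean log2 value was 11.07 to 11.17 in the samples labelled KO and 11.17 to 11.20 in WT samples, with falls of Krt5 (-0.84), Krt14 (-0.44) and Epcam (-0.37) and rises of Aire and Relb (0.35). Lists of markers of other cells held calls as well. The mean of 8 dendritic cell and macrophage markers was 7.12 to 7.20 in the samples labelled KO and 7.45 to 7.67 in WT samples; Csf1r, Ptprc and Adgre1 fell (-1.58 for Adgre1, tested through WT arrays alone) and Cd68 rose by 0.32. That of 12 neuronal markers was 6.78 to 6.83 in the samples labelled KO and 7.0 to 7.09 in WT samples, with a median difference of 0.01; Nefl (-1.93), Nefm (-0.95) and Gap43 (-0.55) fell while Syt1 (0.25) and Syp (0.30) rose. Means were also separate for 8 tuft cell markers, at 6.67 to 7.07 in the samples labelled KO and 7.09 to 7.14 in WT samples, and for 7 cortical epithelial markers, at 7.52 to 7.66 in the samples labelled KO and 7.74 to 7.87 in WT samples. The mean of 10 T cell markers overlapped, at 6.30 to 6.65 in the samples labelled KO and 6.62 to 7.13 in WT samples, and 1 of them, Cd3g, fell (limma adjusted p = 0.0072). Means of neuroendocrine, glial, B cell, fibroblast, endothelial and erythroid markers overlapped too. The part of these cells in the differences described here was not tested.

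Testing required a log2 value over 5.97, the 40th percentile of the whole table, on 3 or more of the 6 arrays. Of the 60 receptor genes, 29 passed and 31 were set aside as dim, 23 of them under the filter on every array. Among the 29, limma with Benjamini-Hochberg adjustment over all 13925 tested genes called 6 that rose and 4 that fell in the samples labelled KO. These are 20.7% and 13.8% of the receptor genes tested, against 12% and 14.1% of all genes tested (26.1% in either direction). Gabra4 passed the filter through KO arrays alone and Gabra5 through WT arrays alone, so both had to differ. With no filter 7 of the 60 rose and 5 fell, against 8.93% and 11% of all genes. Over all 60 genes, tested or not, the median difference was 0.09, against 0.04 over all genes. The samples labelled KO lay wholly above WT samples for 15 receptor genes (25%, against 21% of all genes) and wholly below for 7 (11.7%, against 17.4%). Among tested receptor genes the share of falls is near that of the whole array and the share of rises is higher. The 6 rises include Gabra4, which had to differ. The share wholly above WT samples is near that of all genes and the share wholly below is lower. All these counts are small, and no test of the class was made. The 6 that rose were the nicotinic subunit genes Chrnb2 and Chrna5, the NMDA receptor subunit genes Grin2c and Grin2d, and the GABA-A subunit genes Gabra4 and Gabrd. The 4 that fell were Gabrp, Gabra5, Chrna1 and Gabrr1.

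**Figure D1:**
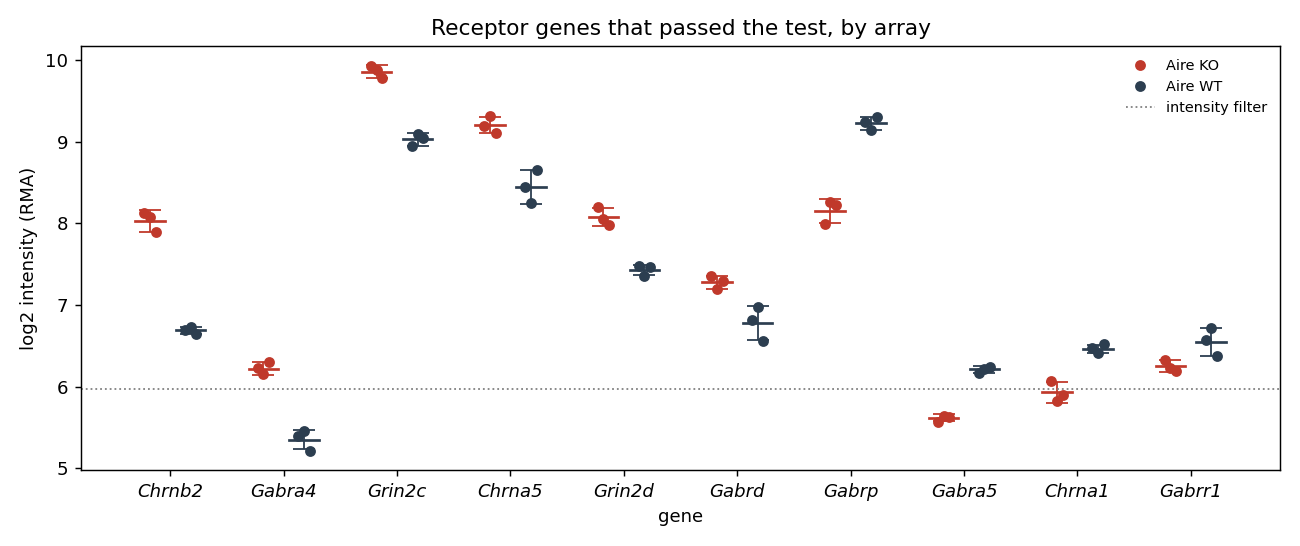
Log2 intensity (vertical axis) of the 10 receptor genes that passed the test, with a point for each of the 3 arrays labelled Aire KO (red, left of each pair) and the 3 Aire WT arrays (dark, right), horizontal lines at the mean and error bars of 1 SD. The dotted line is the intensity filter at 5.97; the 6 genes that rose stand first, and in none of the 10 do the groups overlap.

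To show the sequence at the start of these genes, the promoters of Chrnb2 and Grin2c, which rose, and of Gabrp and Chrna1, which fell, are given from RefSeq (GRCm38.p6). Each runs from 250 bases before the annotated start to 50 bases after it, on the strand of the gene. They lie at chr3:89764583-89764882, chr11:115267194-115267493, chr11:33578908-33579207 and chr2:73580289-73580588, all on the minus strand. Capitals mark the E-box CANNTG, which includes the myogenic form CAGCTG, and the GC box GGGCGG, on either strand; copies of GGGCGG may overlap.
Chrnb2: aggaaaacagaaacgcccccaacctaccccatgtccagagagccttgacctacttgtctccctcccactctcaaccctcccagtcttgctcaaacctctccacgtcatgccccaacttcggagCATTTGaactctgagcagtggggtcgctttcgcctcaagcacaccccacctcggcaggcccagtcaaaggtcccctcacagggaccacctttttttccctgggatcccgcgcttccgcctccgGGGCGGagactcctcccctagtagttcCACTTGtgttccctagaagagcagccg
Grin2c: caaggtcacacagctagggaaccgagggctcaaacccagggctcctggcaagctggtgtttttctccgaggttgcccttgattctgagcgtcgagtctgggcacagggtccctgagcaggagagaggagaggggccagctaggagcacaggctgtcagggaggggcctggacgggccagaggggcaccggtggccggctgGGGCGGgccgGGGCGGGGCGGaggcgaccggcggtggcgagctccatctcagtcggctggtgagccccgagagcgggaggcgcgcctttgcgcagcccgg
Gabrp: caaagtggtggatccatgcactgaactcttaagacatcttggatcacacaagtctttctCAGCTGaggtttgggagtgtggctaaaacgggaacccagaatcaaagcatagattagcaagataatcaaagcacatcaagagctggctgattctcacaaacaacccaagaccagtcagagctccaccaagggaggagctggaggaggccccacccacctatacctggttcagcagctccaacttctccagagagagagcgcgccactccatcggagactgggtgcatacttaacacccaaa
Chrna1: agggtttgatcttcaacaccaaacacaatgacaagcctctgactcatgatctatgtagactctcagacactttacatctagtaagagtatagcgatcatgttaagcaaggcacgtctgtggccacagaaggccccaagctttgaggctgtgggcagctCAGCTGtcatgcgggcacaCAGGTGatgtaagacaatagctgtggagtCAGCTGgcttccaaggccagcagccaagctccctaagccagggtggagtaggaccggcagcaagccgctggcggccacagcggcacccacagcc
The Chrna1 window holds 3 E-boxes, starting 92, 73 and 44 bases before the start site, and 7 CpG dinucleotides. Of the muscle subunits that were not called, Chrng and Chrnb1 also have 3 E-boxes and Chrne has 1. That of Gabrp holds 1 E-box and 4 CpG, that of Chrnb2 2 E-boxes, 1 GC box and 12 CpG, and that of Grin2c no E-box, 3 GC boxes and 22 CpG. Taking the first listed promoter of each of 27025 genes, CANNTG was present in 72.1%, CAGCTG in 16.1% and GGGCGG in 35.9%. Among the 45 receptor genes with a listed promoter these shares were 68.9%, 13.3% and 48.9%. The TATA box TATAAA stood in 8.89% of the receptor promoters and 14.2% of all, and CAGCACC, letters found within the site of the neuronal gene repressor REST, in 11.1% and 7.09%. Neither is in the 4 windows shown. The median number of CpG was 12 in the receptor promoters and 7 in all, for which the quartiles were 3 and 21.

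The muscle acetylcholine receptor is built from an alpha subunit that binds acetylcholine (Chrna1), beta and delta subunits (Chrnb1, Chrnd), and either gamma in fetal or epsilon in adult muscle (Chrng, Chrne). All 5 were bright enough to test, and Chrna1 was the one called. Chrna1 (probe set 10483706) read 6.07, 5.82 and 5.90 in the samples labelled KO, against 6.47, 6.41 and 6.52 in WT samples. Every WT array lay above every KO array, and 2 of the 3 KO arrays were under the filter, which limits the measured fall. The fall was 0.53 on the log2 scale (a 1.45-fold difference, SE 0.09, 95% interval -0.73 to -0.34, limma adjusted p = 0.0011). With an offset of 32 added to the intensities the difference was -0.37.

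The other 4 muscle subunits did not pass the test, and their intervals allow small changes in one or the other direction. Chrnb1 read 7.27, 6.91 and 7.02 in the samples labelled KO and 7.33, 7.02 and 7.14 in WT samples, with a difference of -0.10 (95% interval -0.34 to 0.15, limma adjusted p = 0.56). The groups overlapped almost fully. Chrnd read 6.68, 6.73 and 6.76 in the samples labelled KO against 6.65, 6.53 and 6.46 in WT samples, a difference of 0.18 (-0.01 to 0.36, adjusted p = 0.14) with groups set apart by a narrow margin. Chrne, the adult epsilon subunit, differed by 0.20 (adjusted p = 0.13). Chrng, the fetal gamma subunit, read 6.92, 7.12 and 6.90 in the samples labelled KO against 7.25, 7.20 and 7.12 in WT samples, a difference of -0.21 (-0.40 to -0.01, adjusted p = 0.11). Chrng passed with array weights (-0.26, adjusted p = 0.026). Chrnd and Chrng are neighbours in the genome and had opposite signs, neither called. The mean of 22 skeletal muscle markers was 6.53 to 6.65 in the samples labelled KO and 6.79 to 6.83 in WT samples, and 6 were too dim on all arrays. Of 16 tested, 7 fell and 1 rose, against 14.1% and 12% of all genes tested. Myh3 and Myh8 passed the filter through WT arrays alone and had to fall. The 1 that rose was Des (1.12, limma adjusted p = 1.7e-06). The part of these markers in the Chrna1 result was not tested. No receptor gene is in that marker list.

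**Figure D2:**
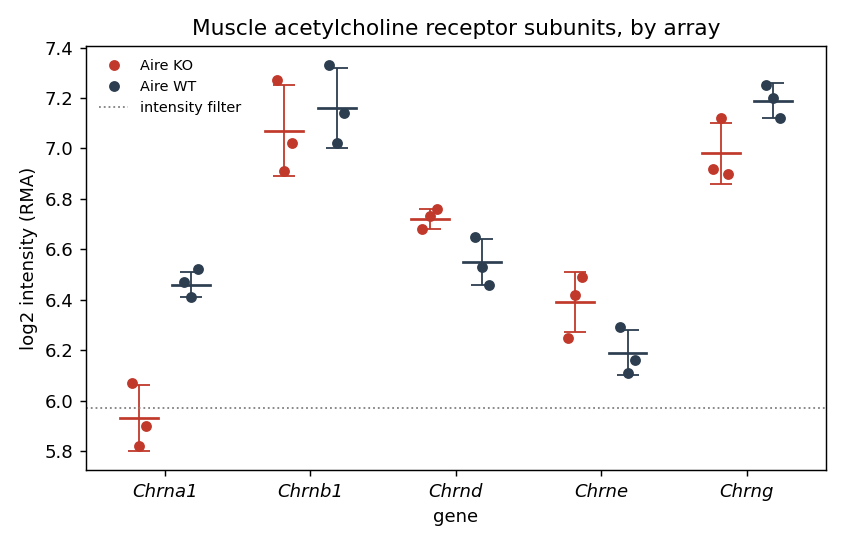
Log2 intensity (vertical axis) of the 5 muscle acetylcholine receptor subunit genes, with a point for each array labelled Aire KO (red, left) and Aire WT (dark, right), lines at the mean and error bars of 1 SD over 3 arrays. Chrna1 is lower on every KO array, at 5.82 to 6.07, than on any WT array, at 6.41 to 6.52.

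Among 11 neuronal nicotinic genes, 6 were tested. Of these limma called 2 that rose and 0 that fell, against 12% and 14.1% of all genes tested. At an unadjusted limma p under 0.05 these numbers were 3 and 1, against 2679 and 2697 of all 13925 genes tested. Chrnb2, which encodes the beta subunit of the main high-affinity nicotinic receptor of brain, had the largest difference of all 60 receptor genes. Its probe set (10499643) read 8.13, 8.08 and 7.89 in the samples labelled KO, against 6.69, 6.73 and 6.64 in WT samples. The groups stood far apart relative to their spread of 0.13 and 0.04 (SD, n = 3). The rise was 1.35 (2.54-fold, SE 0.09, limma adjusted p = 9.2e-07). Chrna5, an accessory subunit that joins other alpha and beta subunits (probe set 10585484), read 9.19, 9.32 and 9.11 in the samples labelled KO, against 8.45, 8.25 and 8.66 in WT samples. The lowest KO array was above the highest WT array by more than the spread of the KO group. Chrna5 rose by 0.76 (1.69-fold, SE 0.11, limma adjusted p = 0.00044).

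The other 4 neuronal nicotinic genes tested were not called. Chrna4, the alpha partner of Chrnb2 in brain, read 6.83, 6.93 and 6.65 in the samples labelled KO, against 7.11, 7.03 and 7.03 in WT samples (-0.25, 95% interval -0.45 to -0.05, limma adjusted p = 0.062). All its KO arrays were lower, but the test was not passed; it was without KO replicate 2 (-0.31, adjusted p = 0.042). Chrnb4, a subunit of the receptors of autonomic ganglia, read 7.87, 7.96 and 7.78 in the samples labelled KO and 7.82, 7.81 and 8.11 in WT samples (-0.05, -0.27 to 0.17). Chrna9 and Chrna10, which form the receptor of inner ear hair cells, differed by 0.29 (adjusted p = 0.068) and 0.20 (adjusted p = 0.21), and Chrna9 passed without KO replicate 2 (0.38, adjusted p = 0.033). The remaining 5 genes were dim. Chrna2 was the one of these with separate groups, at 5.67, 5.55 and 5.52 in the samples labelled KO against 5.96, 6.21 and 5.95 in WT samples, and it passed when no filter was used (-0.46, limma adjusted p = 0.0057).

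The 5 muscarinic receptor genes gave no call. Chrm1, a receptor of brain and glands and the brightest probe set of the family, read 7.12, 7.23 and 7.05 in the samples labelled KO and 7.13, 6.98 and 6.85 in WT samples (0.15, 95% interval -0.06 to 0.36, limma adjusted p = 0.28). Chrm4 differed by 0.07 (-0.11 to 0.26), and Chrm2, Chrm3 and Chrm5 were under the filter on every array. Chrm5 was the one muscarinic gene whose groups did not overlap, at a difference of 0.25.

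Of 13 GABA-A subunit genes, 4 were tested, 2 rose and 2 fell, against 12% and 14.1% of all genes tested. As Gabra4 and Gabra5 passed the filter through 1 group alone, 1 of the calls in each direction was fixed by the filter. Gabrp encodes the pi subunit, which is found in epithelia such as those of the uterus and airway. Its probe set (10385083) read 7.99, 8.26 and 8.22 in the samples labelled KO, against 9.24, 9.14 and 9.30 in WT samples. All 6 arrays were well above the filter, and the gap between the groups was several times the spread within each. Gabrp fell by 1.07 (2.10-fold, SE 0.10, limma adjusted p = 1e-05), the largest fall among the receptor genes, and its promoter is printed above.

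Gabra4 and Gabrd encode subunits that occur together in extrasynaptic receptors of the forebrain, and each rose. Gabra4 (probe set 10530421) read 6.23, 6.15 and 6.30 in the samples labelled KO, against 5.39, 5.45 and 5.21 in WT samples. Every WT array was under the filter, so the rise of 0.87 (1.83-fold, SE 0.09, limma adjusted p = 3.4e-05) is limited by the background; with an offset of 32 added to the intensities it was 0.55. Gabrd (probe set 10519124) read 7.35, 7.19 and 7.29 in the samples labelled KO, against 6.81, 6.98 and 6.56 in WT samples. WT arrays were spread more widely than KO arrays (SD 0.21 and 0.08) without reaching them. Gabrd rose by 0.49 (1.41-fold, SE 0.11, limma adjusted p = 0.0063).

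Gabra5, an alpha subunit best known from the hippocampus (probe set 10563872), read 5.57, 5.64 and 5.63 in the samples labelled KO, against 6.16, 6.22 and 6.24 in WT samples. It fell by 0.59 (1.51-fold, SE 0.08, limma adjusted p = 0.00021), and as every KO array was under the filter, the size of the fall is limited by the background (-0.39 with an offset of 32). Gabrg3, a gamma subunit gene next to Gabra5 in the genome, read 5.72, 5.47 and 5.70 in the samples labelled KO, against 5.96, 6.03 and 6.15 in WT samples. It missed the filter, with 2 arrays above it, and passed the test when no filter was used (-0.42, limma adjusted p = 0.01). The other 8 GABA-A genes analysed were under the filter on every array, with differences between -0.11 and 0.17. Gabrb2 was measured by 3 probe sets, at -0.11, -0.02 and 0.01.

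The rho subunits form GABA-gated channels of the retina. Gabrr1 read 6.33, 6.23 and 6.19 in the samples labelled KO, against 6.57, 6.72 and 6.37 in WT samples. The groups were separate by a narrow margin, and the fall of 0.30 (SE 0.10) barely passed (limma adjusted p = 0.043). The call was lost without KO replicate 1 (adjusted p = 0.066), KO replicate 2 (0.099), KO replicate 3 (0.14), WT replicate 1 (0.095) or WT replicate 2 (0.15), and with all arrays with no filter (0.052), an offset of 32 (0.058) or trended, robust variances (0.056). Gabrr2 differed by 0.24 and was not called (limma adjusted p = 0.11), but passed without WT replicate 2 (0.33, adjusted p = 0.049). Gabrr3 was dim, at 0.03. The number of receptor genes that fell was 2 without WT replicate 1 or WT replicate 2 when the filter was recomputed on the remaining arrays, since Gabra5 was then not tested.

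Of 22 glutamate receptor genes, 9 were tested. Of these limma called 2 that rose and 0 that fell, against 12% and 14.1% of all genes tested. At an unadjusted limma p under 0.05 these numbers were 4 and 1, against 2679 and 2697 of all 13925 genes tested. Over all 22, tested or not, 6 lay wholly above WT samples in the samples labelled KO (27.3%, against 21% of all genes) and 0 wholly below (against 17.4%). Among the channel subunits, the calls were those of NMDA receptors. Grin2c encodes a GluN2 subunit prominent in the cerebellum. Its probe set (10392863) read 9.93, 9.88 and 9.78 in the samples labelled KO, against 8.95, 9.10 and 9.05 in WT samples. Arrays within a group differed little (SD 0.08 in each). Grin2c rose by 0.83 (1.78-fold, SE 0.08, limma adjusted p = 2.7e-05). Grin2d, another GluN2 subunit gene, active mainly early in brain development (probe set 10563421), read 8.20, 8.06 and 7.98 in the samples labelled KO, against 7.48, 7.36 and 7.46 in WT samples, and again the groups were clearly separate. It rose by 0.65 (1.57-fold, SE 0.09, limma adjusted p = 0.00025).

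Other NMDA receptor genes differed less. Grin3b, a subunit that lowers calcium flow, read 6.33, 6.34 and 6.31 in the samples labelled KO, against 6.17, 6.15 and 6.08 in WT samples (0.19, 95% interval 0.02 to 0.36, limma adjusted p = 0.091). Grin2b, a main forebrain subunit, was dim at 5.53, 5.58 and 5.54 in the samples labelled KO, against 5.42, 5.04 and 5.21 in WT samples, and passed with no filter (0.33, limma adjusted p = 0.04). In both genes all KO arrays were higher, by small amounts. Grin2a (-0.11) and Grin3a (0.13) were dim, with overlapping groups. Grina, a membrane protein gene outside the channel family, read 10.21, 10.13 and 10.04 in the samples labelled KO and 9.86, 9.80 and 10.05 in WT samples (0.23, adjusted p = 0.096), and passed without WT replicate 3 (0.30, adjusted p = 0.03).

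AMPA, kainate and metabotropic glutamate receptor genes gave no call. Gria3, the AMPA receptor gene with the brightest probe set and the one tested, read 9.10, 9.33 and 9.04 in the samples labelled KO and 9.15, 8.96 and 9.03 in WT samples (0.11, 95% interval -0.10 to 0.33, limma adjusted p = 0.42). Its groups overlapped, and the interval excludes a rise of the size measured for Grin2c. The other AMPA receptor genes were dim, between -0.11 and 0.10. Grik5, an auxiliary subunit of high-affinity kainate receptors, read 7.18, 7.10 and 7.14 in the samples labelled KO, against 7.02, 6.96 and 6.78 in WT samples (0.22, 0.03 to 0.41, adjusted p = 0.088). Grik3 differed the other way (-0.26, adjusted p = 0.071) and passed without KO replicate 2 (-0.33, adjusted p = 0.037). Grik4 stood at 0.11. Grm2, an inhibitory presynaptic receptor gene, differed by 0.12 (-0.06 to 0.29) and Grm4 by -0.17 (-0.39 to 0.06). The other 5 metabotropic genes were dim, between -0.12 and 0.16.

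**Figure D3:**
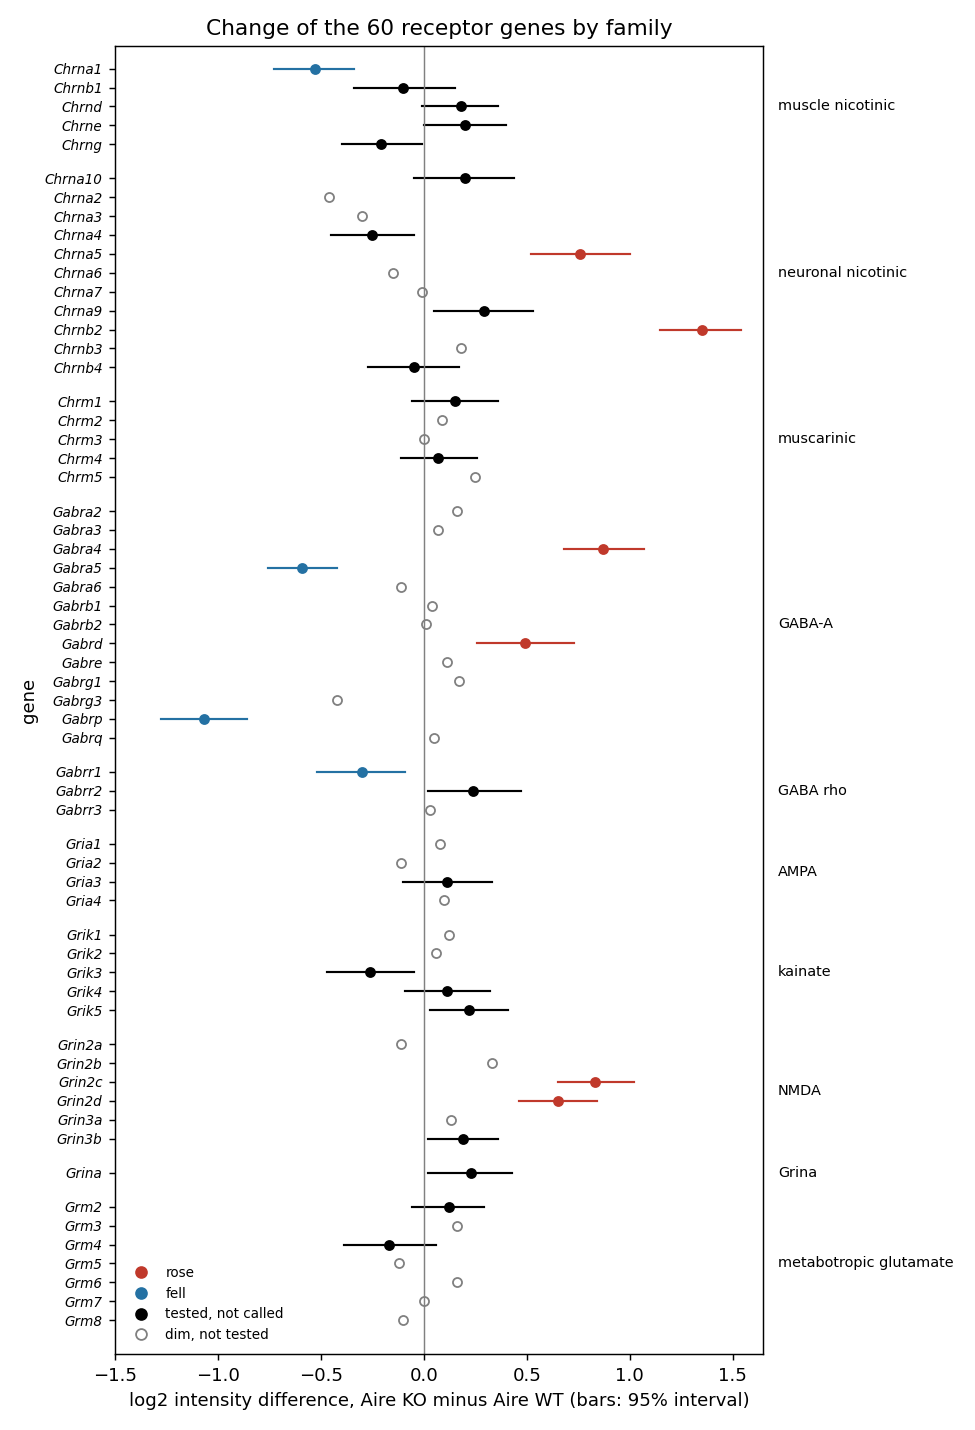
Difference in log2 intensity, Aire KO minus Aire WT (horizontal axis), for all 60 receptor genes grouped by family, with 95% intervals from limma for the 29 tested genes; red rose, blue fell, black was tested and not called, and open circles were too dim to test. Points lie between -1.07 (Gabrp) and 1.35 (Chrnb2), and most open circles stand close to 0.

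Many receptor genes lie beside each other, so neighbours were compared in the RefSeq gene order of GRCm38.p6, whose coordinates are not those of the array. Adjacent receptor genes formed 9 runs of 2 or 3. In the run of Chrna5, Chrna3 and Chrnb4 on chromosome 9, Chrna5 rose by 0.76, dim Chrna3 read -0.30 with overlapping groups and Chrnb4 stood at -0.05. Beside Gabra4, at 0.87, the dim gene Gabrb1 stood at 0.04, and dim Gabra2 and Gabrg1, a separate run on the same chromosome, at 0.16 and 0.17. Gabra5 and Gabrg3 were both lower, at -0.59 and -0.42. Gabrr1 and Gabrr2 had opposite signs, at -0.30 and 0.24. No difference between neighbours was itself tested. For the 10 called receptor genes, the nearest tested gene was also taken on each side. Of these 20, 4 were called in the same direction, 0 in the opposite one and 16 not at all, which compares with 26.1% called in either direction over all tested genes. Of the 4, Tmem104 (0.38) and Fads6 (0.54) flank Grin2c, Prkcz (0.54) lies beside Gabrd and Lcp2 (-0.47) beside Gabrp. They are named because their number is small, after their values were seen.

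**Figure D4:**
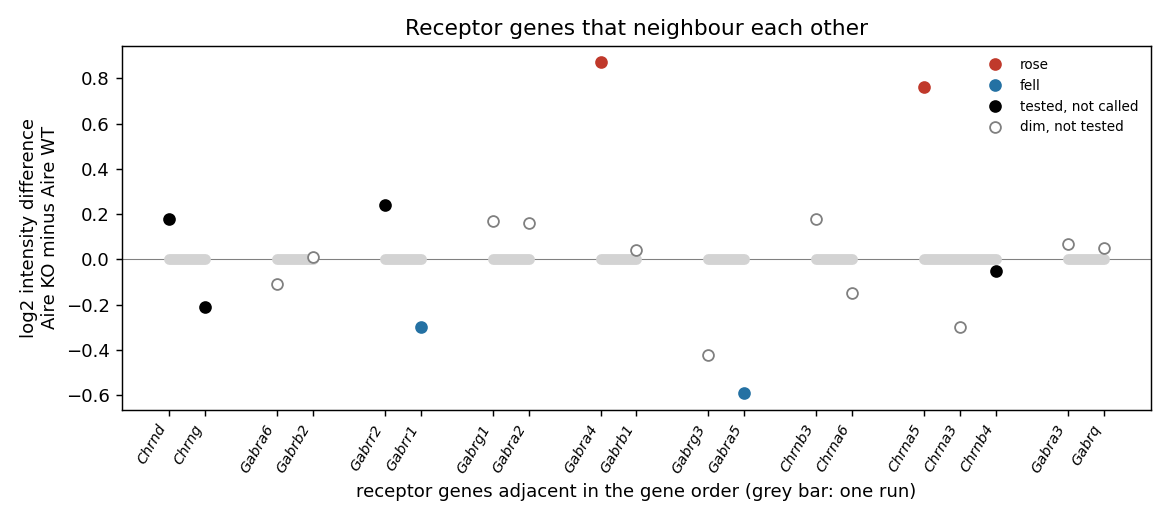
Difference in log2 intensity, Aire KO minus Aire WT (vertical axis), for receptor genes next to each other in the gene order, with a grey bar joining the genes of each of the 9 runs. Gabra4 at 0.87 and Chrna5 at 0.76 stand above neighbours between -0.30 and 0.04, while Gabra5 and Gabrg3 are both below 0.

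Genes that work with these receptors were called in both directions. On 4 lists of related genes, 102 genes were measured and 70 tested, of which 10 rose and 11 fell, against 12% and 14.1% of all genes tested. With no filter 8 rose and 15 fell, against 8.93% and 11%. The list median over all 102 was 0.06, against 0.04 for all genes. P2rx1, Slc6a13 and Slc1a1 passed the filter through WT arrays alone and had to be lower. Without KO replicate 1 or KO replicate 3 the number that rose was 5, and without KO replicate 2 it was 6. With WT replicate 1 left out and the filter recomputed, 7 fell.

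Of 38 other transmitter receptors measured, 18 were tested, 2 rose and 3 fell, against 12% and 14.1% of all genes tested. P2rx3, an ATP-gated channel of sensory neurons, read 8.66, 8.67 and 8.56 in the samples labelled KO, against 8.05, 8.02 and 8.07 in WT samples, and rose by 0.58 (SE 0.08, limma adjusted p = 0.00025), or by 0.38 with its probe sets averaged. P2rx1, an ATP-gated channel of platelets and smooth muscle, fell by 0.85 (adjusted p = 0.00024; -0.53 with an offset of 32), and the serotonin receptor gene Htr1b by 0.51 (adjusted p = 0.0065). Grid1, a delta glutamate receptor that is not gated by glutamate itself, fell by 0.39 (adjusted p = 0.016), a call lost without KO replicate 2 (0.060) or KO replicate 3 (0.065).

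Of 33 receptor assembly and clustering genes, 29 were tested, 4 rose and 3 fell, against 12% and 14.1% of all genes tested. Cacng8, which encodes an auxiliary subunit of AMPA receptors, read 8.88, 8.77 and 8.88 in the samples labelled KO, against 7.87, 7.83 and 7.64 in WT samples. The groups were far apart, and it rose by 1.07 (2.10-fold, SE 0.09, limma adjusted p = 6.2e-06), while Gria3 did not pass. Its relative Cacng7 rose by 0.40 (adjusted p = 0.01; 0.051 without KO replicate 1). Lynx1, a membrane-anchored modulator of nicotinic receptors, fell by 0.40 (adjusted p = 0.017; 0.074 without KO replicate 1 and 0.065 without WT replicate 1). Gabarapl1, of the GABA-A receptor-associated protein family and also part of autophagy, fell by 0.46 (adjusted p = 0.0097).

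At the neuromuscular junction, nerve-derived agrin and the kinase MuSK gather muscle acetylcholine receptors under the nerve. Of 12 genes of that assembly, 8 were tested, 2 rose and 2 fell, against 12% and 14.1% of all genes tested. Rapsn, whose product anchors the receptor, and Musk were dim on all arrays. Nrg1, a growth factor of nerve and epithelium, read 9.93, 9.77 and 9.83 in the samples labelled KO, against 8.64, 8.75 and 8.68 in WT samples. The groups were far apart, and it rose by 1.15 (2.22-fold, SE 0.08, limma adjusted p = 1.9e-06). Its receptor genes moved apart: Erbb3 fell by 0.55 (adjusted p = 0.0007) and Erbb2 rose by 0.28 (adjusted p = 0.04). The Erbb2 call was lost without any 1 of KO replicate 1 (0.21, adjusted p = 0.17), KO replicate 2 (0.051), KO replicate 3 (0.063), WT replicate 1 (0.10) or WT replicate 2 (0.099). Utrn, which encodes the dystrophin relative utrophin, fell by 0.67 (adjusted p = 0.00038).

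Of 19 genes for the synthesis, transport and breakdown of transmitters, 15 were tested. Of these 2 rose and 3 fell, against 12% and 14.1% of all genes tested. Ache, the enzyme that breaks down acetylcholine, read 10.50, 10.56 and 10.33 in the samples labelled KO, against 9.89, 9.80 and 10.06 in WT samples, and rose by 0.55 (SE 0.10, limma adjusted p = 0.0017). Chat, the enzyme that makes it, was dim, at 0.07. Glul, which converts glutamate to glutamine, read 8.10, 8.37 and 8.44 in the samples labelled KO, against 9.27, 9.23 and 9.33 in WT samples, and fell by 0.97 (SE 0.10, adjusted p = 3e-05). The GABA transporter gene Slc6a13 fell by 0.90 (adjusted p = 3.7e-05; -0.59 with an offset of 32) and the glutamate transporter gene Slc1a1 by 0.60 (adjusted p = 0.0018; -0.39 with an offset of 32), each with all KO arrays under the filter.

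**Figure D5:**
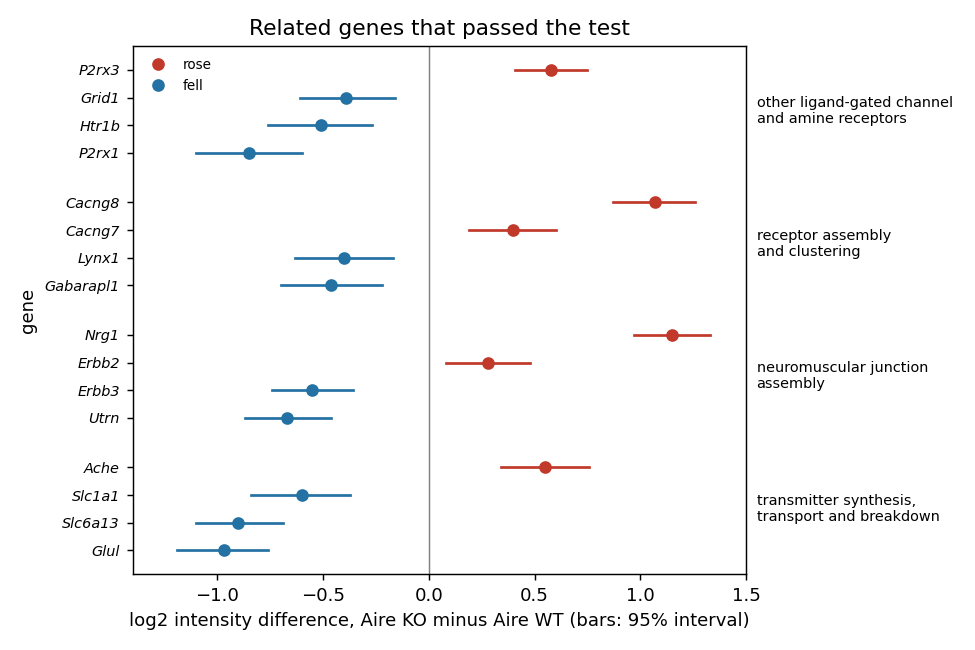
Difference in log2 intensity, Aire KO minus Aire WT (horizontal axis), with 95% intervals from limma, for up to 4 called genes of each list of related genes, in order of adjusted p; red rose and blue fell. Nrg1 at 1.15 and Cacng8 at 1.07 rose most, and Glul at -0.97 fell most among the genes shown.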

How the data were processed

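The deposited values are probe set intensities on a linear scale, made by the authors with RMA, per the submitters' processing notes; the version, the annotation and the genome build are not stated in the labels. RMA forces arrays to 1 distribution, so it hides a change in total RNA, and it gives no detection call; background compresses differences of dim genes. Of 35512 probe sets, 62 gave the 60 receptor genes, and all 60 matched RefSeq (GRCm38.p6) by Entrez identifier. Some genes of these families are not reported here. Tests used log2 of the intensities (pseudocount 0). The number of arrays limits the precision. The test was limma 3.58.1 (lmFit, eBayes, two-sided) in R 4.3.3 on all genes above the filter, with genotype as the only factor, Benjamini-Hochberg adjustment and a threshold of 0.05; it was tested on simulated data. Figures used matplotlib 3.10.9. Named genes are the called receptor genes, the 5 muscle subunits, the brightest probe set of each family and up to 4 called genes of each related list; others were chosen after their values were seen. Members and lists were chosen with earlier results of these data known. Same-numbered arrays did not deviate together (correlations of deviations -0.02, -0.21 and -0.06), so numbers were not taken as pairs. No 2 arrays shared more than 50 identical values.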

Additional observations from a re-analysis of the deposited data

How the results depend on the processing

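Under 23 alternatives, the log2 changes of the named genes gave 775 values besides the reported ones, of which 0 changed sign, 52 lost a call and 4 gained one. All 10 receptor calls were kept after another quantile normalization, median centring and the replicate block (6 rose and 4 fell), and with a gene's probe sets averaged or taken singly. With the stricter filter, at the 60th percentile, 1 receptor gene and 7 related genes fell, because fewer genes were tested. With array weights 15 receptor genes were called. Of these 7 fell, with Chrna4, Chrng and Grik3 added. Chrna9 (0.30, limma adjusted p = 0.04) and Grina (0.27, adjusted p = 0.027) were added to those that rose. The cause was not tested. With the replicate block 6 related genes rose (the Erbb2 call was lost, adjusted p = 0.069), and the numbers were not taken to pair the samples. When limma's treat function required changes beyond 0.5, 3 receptor genes rose (Chrnb2, Gabra4, Grin2c) and 1 fell (Gabrp), 2 related genes rose and 2 fell, and of all genes 118 rose and 338 fell, since small changes no longer count. Leaving out 1 array, with the same genes or with the filter recomputed (12 fits), gave 5 to 7 receptor genes that rose and 2 to 5 that fell, 5 to 8 related genes that rose and 7 to 12 that fell, and 1012 to 1547 of all genes that rose (1052 without KO replicate 1 and, with the filter recomputed, 1012 without it and 1098 without KO replicate 3) and 1363 to 1877 that fell. The recomputed filter left Gabra4 untested without any KO array and Gabra5 without any WT array. RMA values give no signal over background, so the levels of the 31 dim receptor genes were not told from background.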

Other observations

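Spread between mice was small for most receptor genes. The median SD of log2 intensity over the 60 genes was 0.10 in the samples labelled KO and 0.10 in WT samples, and the highest was 0.29 and 0.40. The highest belonged to Chrm2 in the samples labelled KO (5.09, 5.43 and 4.86) and to Grin2a in WT samples (4.74, 5.48 and 4.84), both of them dim.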
